A study of Saccharomyces cerevisiae with 6 samples.

Results

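The isoleucine and valine tRNAs of budding yeast were followed in wild type, *rtf1∆* and *paf1∆* cells by tRNA-HySeq, in which gel-purified tRNA is cut by mild alkaline hydrolysis and the short fragments are sequenced and counted per tRNA. Every counted sequence named as an isoleucine or valine tRNA was taken, which gave 3 isoleucine and 4 valine sequences, 7 of the 70 in all. Summed by anticodon, they made 5 of 43 types, tRNA-Ile(AAU), tRNA-Ile(UAU), tRNA-Val(AAC), tRNA-Val(CAC) and tRNA-Val(UAC).

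Each amino acid is served by a major tRNA with an A-starting anticodon and by minor tRNAs with few genes. In yeast the first base of the A-starting anticodons of isoleucine and valine is deaminated to inosine by the Tad2/Tad3 enzyme, and the inosine pairs with codons ending in U or C. tRNA-Ile(UAU) reads the rare codon AUA and is made from a precursor with an intron, while tRNA-Val(UAC) and tRNA-Val(CAC) read the valine codons ending in A and G. Paf1 and Rtf1 are subunits of the PAF1 complex, which travels with elongating RNA polymerase II, and the study asked what its loss does to tRNA genes and their products, which RNA polymerase III makes.

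Each genotype had 2 libraries, 6 in all, from cells in log phase at 30 °C in YEP with 2% dextrose, at an A600 of 0.6 to 0.8. Wild type was strain DAS217, *rtf1∆* was DAS549 and *paf1∆* was DAS516, and in both mutants *HIS3* replaces the deleted gene. The background of DAS217 is not given in the sources used here, each genotype is 1 strain, and nothing says whether the libraries of a genotype came from separate cultures, so that the tests measure only the spread between these libraries. Neither *PAF1* nor *RTF1* was among the counted sequences, and the labels could not be checked against them.

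Libraries held between 519302 and 8259323 reads on tRNAs, and each of the 7 sequences had from 1771 to 142417 reads in a library, far above the floor of 3 counts. Reads on tRNAs were 5.64 to 6.76% of all reads in wild type and *rtf1∆* libraries but 87.4 and 87.9% in *paf1∆* libraries. All 70 reference sequences were also listed as 3 nt longer in *paf1∆* libraries than in the others, so the *paf1* deletion and the different processing of its libraries cannot be told apart in any comparison below. By their names, wild type replicate 1 belongs to set 1, and the other wild type library and the *rtf1∆* pair to set 2, with no set named for *paf1∆*. Replicates of every genotype differed by more than sampling noise over the 7 sequences, their chi-square divided by its degrees of freedom being 1393 in wild type, 51.0 in *rtf1∆* and 4244 in *paf1∆*. This measure grows with the number of reads, which was highest in *paf1∆*, so it does not rank the genotypes by how much their replicates differed.

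The R64 reference annotation has 15 isoleucine and 18 valine tRNA genes, and these 33 genes held only 7 distinct sequences, as many as were counted. The major tRNA-Ile(AAU) came from 13 identical genes. Its sequence as encoded in the gene, shown from the copy at chrII:197494-197567 on the plus strand with the anticodon in capitals, reads as follows in DNA letters, 5′ to 3′.
Ile-AAU-a: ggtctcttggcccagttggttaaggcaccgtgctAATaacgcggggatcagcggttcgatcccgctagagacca
The minor tRNA-Ile(UAU) came from 2 genes, at chrIV:884361-884493 on the plus strand and chrXII:605300-605432 on the minus strand, each with the same 60-nt intron from position 38 to 97 of the 133-nt gene. Without the intron both are 73 nt long and differ by the substitution A59T, counted from the 5′ end. They are shown because the counts divide reads between them, with the differing base in capitals beside the anticodon.
Ile-UAU-a: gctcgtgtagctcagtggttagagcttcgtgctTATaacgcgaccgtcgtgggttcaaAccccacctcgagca
Ile-UAU-b: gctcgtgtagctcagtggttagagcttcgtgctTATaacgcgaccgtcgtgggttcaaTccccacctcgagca
The major tRNA-Val(AAC) came from 13 identical genes, shown from chrV:438700-438773 on the plus strand, and from 1 further gene at chrXV:663812-663885 on the minus strand. The pair differs only by A74G, the last base of the gene, in capitals here beside the anticodon.
Val-AAC-a: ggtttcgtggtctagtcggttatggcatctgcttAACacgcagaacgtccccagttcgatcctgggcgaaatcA
Val-AAC-b: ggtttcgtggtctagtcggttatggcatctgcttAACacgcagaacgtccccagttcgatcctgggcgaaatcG
The minor valine tRNAs came from 2 identical genes each, shown from chrIV:1075472-1075544 for tRNA-Val(CAC) and chrII:326792-326865 for tRNA-Val(UAC), both on the minus strand. They are shown because they were, among these 7 sequences, the most alike with different anticodons.
Val-CAC-a: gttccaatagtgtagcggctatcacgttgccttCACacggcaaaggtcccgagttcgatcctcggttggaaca
Val-UAC-a: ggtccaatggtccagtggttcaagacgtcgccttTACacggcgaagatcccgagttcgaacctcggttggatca

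Fragments of 19 to 35 nt were sequenced, and no 2 of these tRNAs with different anticodons shared an identical stretch longer than 12 nt, as found between tRNA-Val(CAC) and tRNA-Val(UAC), which were 79.7% identical. Levels of these 5 anticodons therefore do not rest on identical fragments shared among them. The other counted sequences were not compared with them, and how fragments with mismatches were placed is not known. Within an anticodon the copies shared 73 nt for tRNA-Val(AAC) and 118 nt, intron included, for tRNA-Ile(UAU), and most fragments of such a pair fit both copies. The deposited counts number the copies first and second, and which copy stands for which gene sequence is not given in the sources used here. The tRNA-Ile(UAU) references were 133 nt long in wild type and *rtf1∆* and 136 nt in *paf1∆*, and so held the intron in every genotype. Reads of mature and precursor tRNA were thus counted together, and a mature fragment across the splice junction has no unbroken match there.

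Of all tRNA reads, tRNA-Ile(AAU) had 5.51 and 4.13% in wild type replicates 1 and 2, 4.19 and 3.21% in *rtf1∆*, and 1.62 and 0.925% in *paf1∆*. Both *paf1∆* libraries were below the other 4 on this share. The 7 sequences together had 11.3 and 8.77% of tRNA reads in wild type, 6.94 and 5.65% in *rtf1∆*, and 5.59 and 4.06% in *paf1∆*.

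Counts per 1000000 tRNA reads of a library (CPM), divided by the length of the gene without its intron, were used to rank the anticodons. tRNA-Ile(AAU) led in wild type, with 745 and 558 CPM per nucleotide, and in *rtf1∆*, with 566 and 433. In *paf1∆* it came after tRNA-Val(AAC), which had 306 and 213 against 219 and 125 for tRNA-Ile(AAU), and in *paf1∆* replicate 2 also after tRNA-Val(UAC), which had 113 and 130. tRNA-Val(CAC) had the lowest value in wild type, *rtf1∆* and *paf1∆* libraries alike, between 30.7 and 89.2. In wild type the order of the other 3 anticodons was not fixed, since the libraries ranged from 120 to 340 for tRNA-Val(AAC), from 176 to 305 for tRNA-Val(UAC) and from 156 to 181 for tRNA-Ile(UAU).

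Per nucleotide and gene, the minor tRNAs had higher read numbers than the major tRNA of their amino acid in each of the 6 libraries. For isoleucine, tRNA-Ile(UAU) had 90.4 and 78.0 CPM per nucleotide and gene in wild type, against 57.3 and 42.9 for tRNA-Ile(AAU). In *paf1∆* both values were lower, at 32.8 and 25.9 against 16.8 and 9.61. For valine, tRNA-Val(UAC) had 88.1 and 153 in wild type against 24.3 and 8.60 for tRNA-Val(AAC), and 56.3 and 64.8 against 21.9 and 15.2 in *paf1∆*. The closest pair was tRNA-Val(CAC) and tRNA-Val(AAC) in *paf1∆* replicate 2, with 15.3 and 15.2, and without the division by length their order turned, at 1119 and 1124 CPM per gene. No standard of known amount was used, so these compare read numbers and not molecules.

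Levels were next compared on a common scale, as CPM after edgeR's TMM normalization of all 6 libraries, and all CPM values from here on are on it. tRNA-Ile(AAU) had 41307 and 43825 CPM in wild type, 43607 and 36767 in *rtf1∆*, and 13319 and 11844 in *paf1∆*. Wild type and *rtf1∆* overlapped, and both *paf1∆* libraries lay below the other 4. The first tRNA-Ile(UAU) sequence had 4940 and 5906 CPM in wild type, 3797 and 4204 in *rtf1∆*, and 1793 and 2186 in *paf1∆*. The second had 4947 and 6177, 3998 and 4325, and 2153 and 2657 in the same order. The 3 genotypes did not overlap for either sequence, with wild type highest and *paf1∆* lowest, although the *rtf1∆* libraries lay close below those of wild type. For 2 against 2 libraries the smallest p that a two-sided exact test can give is 0.333. A lack of overlap between genotypes, here and below, is therefore a description and not a test. How often the other counted tRNAs also lacked overlap is not given here.

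The valine tRNAs spread more within wild type. The first tRNA-Val(AAC) sequence had 9512 CPM in wild type replicate 1 and 4718 in replicate 2, 3441 and 3453 in *rtf1∆*, and 14188 and 18642 in *paf1∆*. The second sequence had nearly the same levels in wild type, 9356 and 4737, and in *rtf1∆*, 3698 and 3455, but 4468 and 1506 in *paf1∆*. In *paf1∆* the first sequence was thus above every other library and the second was below both wild type libraries. tRNA-Val(CAC) had 4879 and 3714 CPM in wild type, 3592 and 4403 in *rtf1∆*, and 3223 and 2866 in *paf1∆*, the narrowest spread over genotypes of the 7. tRNA-Val(UAC) had 9770 CPM in wild type replicate 1 and 23965 in replicate 2, which enclosed 1 of the 2 *rtf1∆* values of 10066 and 8186 and 1 of the 2 *paf1∆* values of 6851 and 12276. Wild type replicate 1 was thus the higher one for the first tRNA-Val(AAC) sequence and the lower one for tRNA-Val(UAC), by 2.02-fold and 2.45-fold. It is the only library named as set 1, and whether the set plays a part was not tested.

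**Figure D1:**
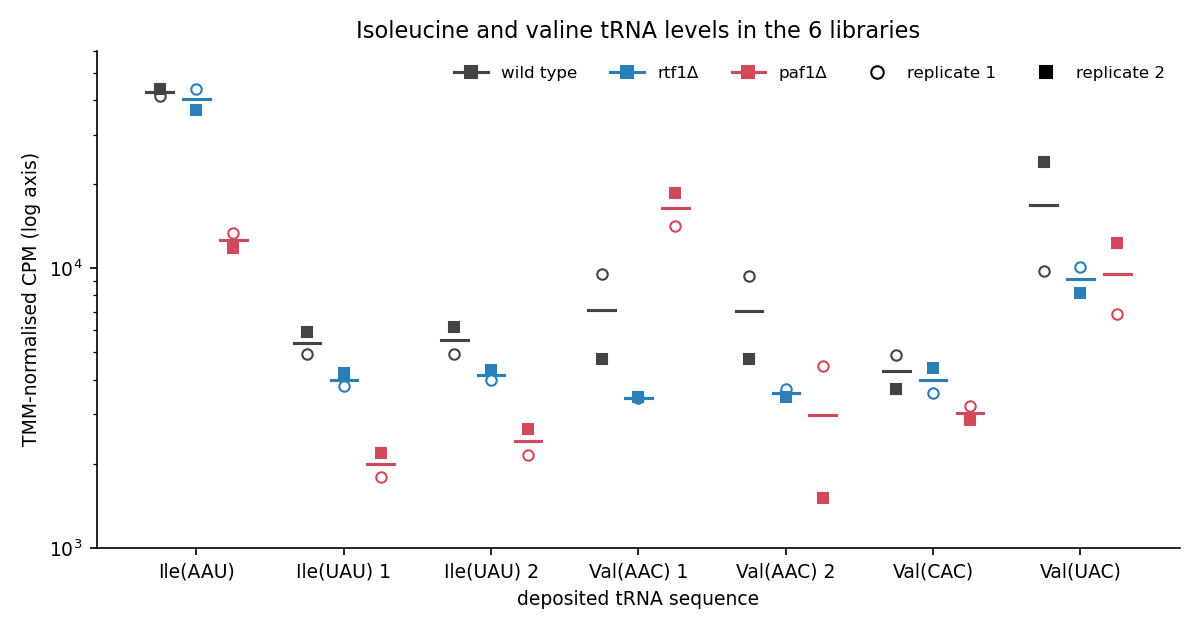
Level of each deposited isoleucine and valine tRNA sequence as TMM-normalised CPM on a log axis; open circles are replicate 1, filled squares replicate 2 and bars the mean of the 2 libraries of a genotype. tRNA-Ile(AAU) lay at 11844 and 13319 CPM in *paf1∆* and at 36767 to 43825 in the other 4 libraries, and the first and second tRNA-Val(AAC) sequences parted only in *paf1∆*.

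In *rtf1∆* against wild type all 7 sequences had a negative log2 fold change, from -1.05 to -0.08, with a median of -0.44 beside -0.06 over all 70 sequences. This direction was relative to the scale: total counts moved the median of all sequences by -0.31 against TMM, while leaving all 7 negative. Only the pair of tRNA-Val(AAC) sequences passed the test, at -1.05 (SE 0.31) and -0.98 (SE 0.31), both with an adjusted p of 0.0403 by edgeR. These were 2 of 7, beside 5.71% of all 70 sequences. As most fragments fit both copies, they are not separate observations.

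The tRNA-Val(AAC) calls depended on the test and on single libraries. They held with DESeq size factors, but by DESeq2 the adjusted p was 0.0990 for both, and by limma-voom 0.0994 and 0.117. Without the library of set 1, within set 2, the values were -0.43 and -0.38 by edgeR, and neither passed. Within set 2 tRNA-Val(UAC) was at -1.37, against -0.89 (SE 0.37, adjusted p = 0.136 by edgeR) with all 4 libraries. The fit within set 2 has 1 wild type library, which is assumed to vary like the *rtf1∆* libraries. Such fits both lost and gained calls, and tRNA-Val(UAC) passed within set 2. With the other wild type library left out instead, tRNA-Val(UAC) was at -0.098 and the tRNA-Val(AAC) pair at -1.46 and -1.39, of which only the pair passed. Which valine tRNA had the lower value thus depended on the wild type library kept. The tRNA-Val(AAC) calls were also lost without *rtf1∆* replicate 1 (-1.01 and -0.997) and without *rtf1∆* replicate 2 (-1.05 and -0.93) by edgeR. tRNA-Val(CAC) was at -0.10 (SE 0.30) and tRNA-Ile(AAU) at -0.08 (SE 0.43), and both passed 0 when a library was left out. The tRNA-Ile(UAU) sequences were at -0.44 (SE 0.31) and -0.42 (SE 0.31), with adjusted p of 0.336 and 0.363 by edgeR.

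Summed by anticodon, the first and second copies counted once, no isoleucine or valine type passed the test by edgeR in *rtf1∆*, beside 0% of the 43 types. Of these 43 types, 7 had an unadjusted p under 0.05 by edgeR, among them tRNA-Val(AAC), and DESeq2 called 2 and limma-voom 0. tRNA-Val(AAC) had a sum of 20065 and 9344 CPM in wild type and of 7205 and 7193 in *rtf1∆*, a log2 fold change of -1.03 (SE 0.39, adjusted p = 0.190 by edgeR). This sum passed with total counts (-1.40, adjusted p = 0.0277 by edgeR), and it was at -1.48 without wild type replicate 2. Both *rtf1∆* values were lower than both wild type values, but the wild type replicates differed from each other by 2.15-fold, no less than the 2.04-fold between the genotypes.

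In *paf1∆* against wild type 6 of the 7 sequences had a negative log2 fold change and the first tRNA-Val(AAC) sequence a positive one, with a median of -1.37 beside -0.01 over all 70 sequences. tRNA-Ile(AAU) fell by 1.93 on the log2 scale (SE 0.47, adjusted p = 0.0400), which is 3.81-fold, and the first tRNA-Ile(UAU) sequence by 1.61 (SE 0.44, adjusted p = 0.0498), both by edgeR. These were 2 of 7, beside 18.6% of all 70 sequences. The second tRNA-Ile(UAU) sequence was at -1.37 (SE 0.44) with an adjusted p of 0.0732 by edgeR. It passed with upper quartile scaling (adjusted p = 0.0204), at least 500 counts in every library (0.0343) and all 6 libraries in one fit (0.0192) by edgeR, by DESeq2 (0.000703) and by limma-voom (0.0425). DESeq size factors moved the median of all sequences by 0.14 against TMM, and under them the first tRNA-Ile(UAU) sequence, at -1.48, no longer passed (adjusted p = 0.0558 by edgeR). Its call was also lost under total counts (adjusted p = 0.114), without either wild type library (adjusted p = 0.373 and 0.368) and without *paf1∆* replicate 1 (adjusted p = 0.0639). No valine tRNA passed the test and none had an unadjusted p under 0.05 by edgeR, while DESeq2 called the first tRNA-Val(AAC) sequence (1.18, adjusted p = 0.0290) and limma-voom none. The first tRNA-Val(AAC) sequence was at 1.05 (SE 0.52), the second at -1.45 (SE 0.63), tRNA-Val(CAC) at -0.67 (SE 0.42) and tRNA-Val(UAC) at -0.96 (SE 0.60), with adjusted p from 0.169 to 0.283. The second tRNA-Val(AAC) sequence passed with upper quartile scaling (-1.52, adjusted p = 0.0460) and at least 500 counts in every library (-1.27, adjusted p = 0.0367) by edgeR. Without *paf1∆* replicate 1 it was at -2.23 and also passed, in a fit with 1 *paf1∆* library. These valine values moved widely with the libraries used. Leaving out 1 library, the first tRNA-Val(AAC) sequence lay from 0.62 (without wild type replicate 2) to 1.81 (without wild type replicate 1), the second reached -0.66 (without wild type replicate 1), tRNA-Val(CAC) -0.28 (without wild type replicate 1), and tRNA-Val(UAC) lay from -1.55 (without *paf1∆* replicate 2) to -0.18 (without wild type replicate 2).

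As sums, tRNA-Ile(AAU) passed the test at -1.75 (SE 0.47, adjusted p = 0.0498 by edgeR) and tRNA-Ile(UAU) did not, at -1.34 (SE 0.45, adjusted p = 0.0808). The tRNA-Ile(UAU) sum passed with DESeq size factors (-1.46, adjusted p = 0.0345) and all 6 libraries in one fit (adjusted p = 0.00540) by edgeR and by DESeq2 (adjusted p = 0.00551). It did not pass with upper quartile scaling (adjusted p = 0.0804), total counts (0.108) or the replicate number as a block (0.149) by edgeR, nor by limma-voom (0.0833). In the fit of 4 libraries without a block 1 of 5 types passed, beside 16.3% of all 43. The tRNA-Ile(AAU) sum lost its call with the block (adjusted p = 0.0989 by edgeR) and by limma-voom (adjusted p = 0.0573). It kept the call with the other scalings, by DESeq2 and with all 6 libraries in one fit. The tRNA-Ile(AAU) call was lost without wild type replicate 2 (log2 fold change -1.90, adjusted p = 0.156) and without *paf1∆* replicate 1 (-1.85, adjusted p = 0.0949) in the sequence fit by edgeR, its size hardly moving, and the sum lost its call whichever library was left out (adjusted p 0.0790 to 0.150). The tRNA-Val(AAC) sum had 17758 and 19166 CPM in *paf1∆*, which lay between the wild type libraries at 20065 and 9344, and its log2 fold change was 0.42 (SE 0.53). The positive value of the first tRNA-Val(AAC) sequence thus had no counterpart of like size in the sum.

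In *paf1∆* against *rtf1∆* 1 isoleucine and 1 valine sequence passed the test, in opposite directions. tRNA-Ile(AAU) was lower, with a log2 fold change of -1.68 (SE 0.22, adjusted p = 0.0118), and the first tRNA-Val(AAC) sequence was higher at 2.25 (SE 0.24, adjusted p = 0.00759), both by edgeR. These were 2 of 7, beside 25.7% of all 70 sequences. The second tRNA-Val(AAC) sequence was at -0.26 (SE 0.59), and its sign turned under total counts (0.01) and without *paf1∆* replicate 2 (0.32). The others lay between -1.01 and 0.07 with adjusted p from 0.0677 to 0.881. The lowest of them, the first tRNA-Ile(UAU) sequence, passed with upper quartile scaling (-1.29, adjusted p = 0.0328) and all 6 libraries in one fit (adjusted p = 0.0321) by edgeR, by DESeq2 (adjusted p = 0.000463) and by limma-voom (adjusted p = 0.0395).

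Of the anticodon sums, tRNA-Ile(AAU) at -1.78 (SE 0.19, adjusted p = 0.00514), tRNA-Ile(UAU) at -1.002 (SE 0.24, adjusted p = 0.0372) and tRNA-Val(AAC) at 1.36 (SE 0.16, adjusted p = 0.00577) passed the test by edgeR. These were 3 of 5 types, beside 37.2% of all 43. The tRNA-Val(AAC) sum was 7205 and 7193 CPM in *rtf1∆* against 17758 and 19166 in *paf1∆*, with no overlap. The tRNA-Ile(UAU) call was lost with upper quartile scaling (adjusted p = 0.0530) and total counts (adjusted p = 0.167) by edgeR. Without *rtf1∆* replicate 1 none of the 43 sums passed, and the values were then -1.66, -1.07 and 1.38 in that order, while without replicate 2 tRNA-Ile(AAU) alone of the 3 passed (-1.88, adjusted p = 0.0130 by edgeR). All 3 comparisons share libraries pairwise and are not independent of each other.

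**Figure D2:**
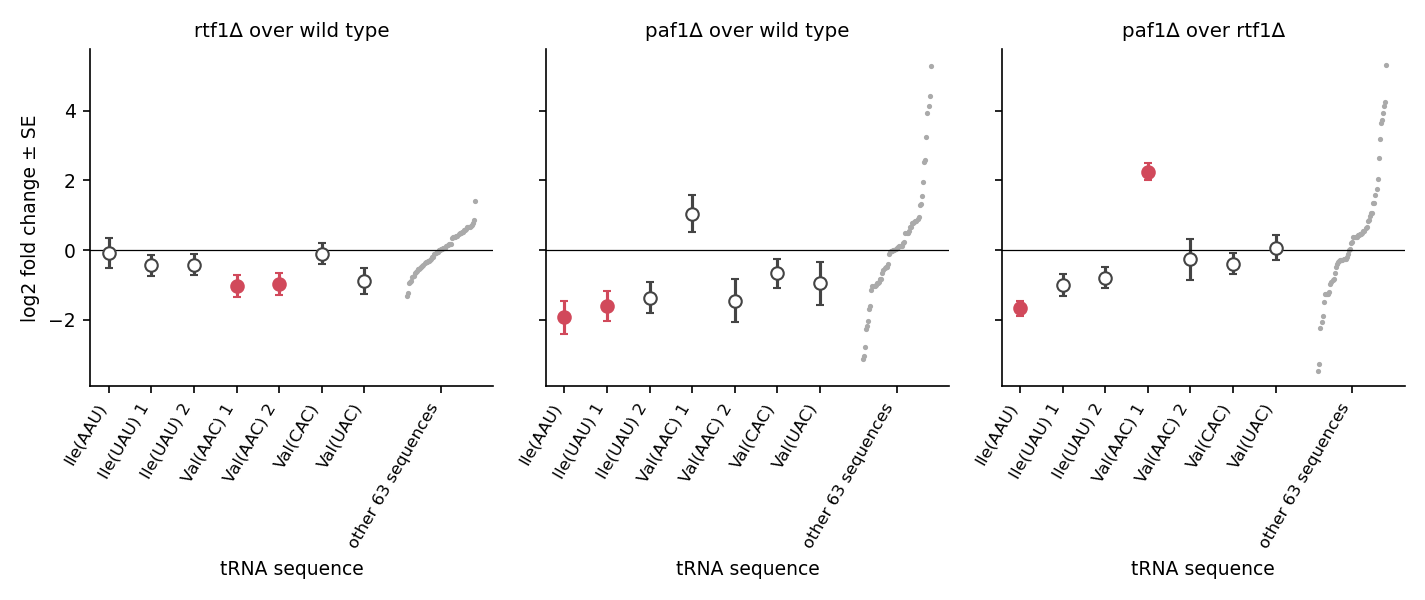
Log2 fold change of the 7 isoleucine and valine tRNA sequences with a standard error derived from edgeR's quasi-likelihood F statistic (filled red, adjusted p under 0.05), and of the other 63 sequences sorted by value in grey, for each comparison of genotypes. tRNA-Ile(AAU) lay at -0.08, -1.93 and -1.68 from left to right, and the first tRNA-Val(AAC) sequence at -1.05, 1.05 and 2.25.

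The balance of anticodons within an amino acid needs no scaling between libraries. For isoleucine, tRNA-Ile(UAU) made 19.3% (95% Wilson interval 18.9 to 19.7%) and 21.6% (21.3 to 21.9%) of the reads in wild type, 15.2% (14.8 to 15.5%) and 18.8% (18.3 to 19.3%) in *rtf1∆*, and 22.9% (22.7 to 23.1%) and 29.0% (28.7 to 29.3%) in *paf1∆*. These intervals cover counting error only, since amplified reads are not independent molecules. The order was *rtf1∆*, wild type and *paf1∆* with no overlap, but the libraries of a genotype differed by far more than their intervals. The gene share of tRNA-Ile(UAU) is 13.3%, below its read share in each library.

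For valine, tRNA-Val(AAC) made 56.3% (95% Wilson interval 55.7 to 56.9%) of the reads in wild type replicate 1 and 25.5% (25.1 to 25.8%) in replicate 2, 34.3 and 35.4% in *rtf1∆*, and 64.9 and 57.1% in *paf1∆*. tRNA-Val(UAC) made 29.1 and 64.5% in wild type, 48.4 and 42.0% in *rtf1∆*, and 23.8 and 34.8% in *paf1∆*. tRNA-Val(CAC) made 14.6 and 10.002%, 17.3 and 22.6%, and 11.2 and 8.12% in the same order. With 14 of 18 genes, or 77.8%, tRNA-Val(AAC) was under its gene share in each of the 6 libraries, while tRNA-Val(UAC), with 11.1% of the genes, was from 2.15 to 5.81 times over it. The major valine tRNA was thus the largest class in wild type replicate 1 and both *paf1∆* libraries, and tRNA-Val(UAC) in wild type replicate 2 and both *rtf1∆* libraries, all 3 of which belong to set 2.

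**Figure D3:**
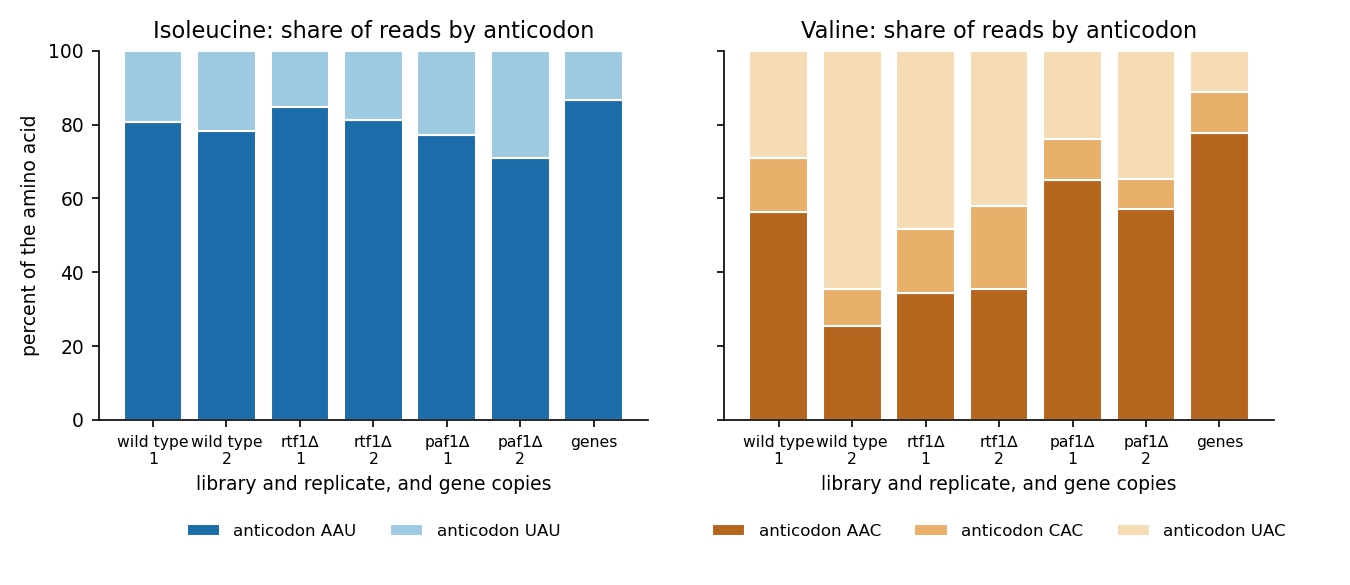
Percent of isoleucine (left) and valine (right) tRNA reads carried by each anticodon in the 6 libraries, with the percent of gene copies as the last bar. The AAU bar of isoleucine spans 71.0 to 84.8% of reads, while the AAC bar of valine spans 25.5 to 64.9% and differs most between the wild type replicates.

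Tested with limma on the log2 ratio of each minor to the major anticodon, over 21 such ratios of 12 amino acids, none of the 3 isoleucine and valine ratios passed in *rtf1∆* against wild type, beside 0% of all ratios. In that comparison 3 of 21 had an unadjusted p under 0.05, none of them these. An edgeR fit with the amino acid sum as offset also called 0. That fit follows the share of a minor anticodon in its amino acid, and not its ratio to the major one. CAC over AAC had a difference of 0.83 (SE 0.43, adjusted p = 0.364 by limma) in the log2 ratio, UAC over AAC of 0.17 (SE 0.68) and UAU over AAU of -0.34 (SE 0.41). Without wild type replicate 2 the difference of CAC over AAC was 1.13. UAC over AAC was 0.518 in wild type replicate 1 and 2.53 in replicate 2, on either side of the *rtf1∆* values of 1.41 and 1.18. Its difference was -0.97 without wild type replicate 1 and 1.32 without replicate 2, so the direction depended on which wild type library was used.

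In *paf1∆* against wild type the 3 differences were -1.02 (SE 0.63) for CAC over AAC, -1.28 (SE 0.90) for UAC over AAC and 0.44 (SE 0.61) for UAU over AAU, and none passed (adjusted p 0.523 to 0.737 by limma), beside 14.3% of all ratios. UAC over AAC moved to -2.42 without wild type replicate 1 and to -0.13 without replicate 2, and UAU over AAU to 0.21 without *paf1∆* replicate 2 and 0.67 without replicate 1. The edgeR fit with the amino acid sum as offset gave -0.34 for the share of CAC in valine reads and -0.68 for that of UAC. These shares are another measure than the ratios to AAC. In *paf1∆* against *rtf1∆* CAC over AAC fell, with -1.85 (SE 0.34, adjusted p = 0.0262 by limma), 1 of 3 beside 38.1% of all ratios. Its values were 0.503 and 0.637 in *rtf1∆* and 0.173 and 0.142 in *paf1∆*, with no overlap, and 0.259 and 0.393 in wild type. UAC over AAC was at -1.45 (SE 0.40, adjusted p = 0.0513) and UAU over AAU at 0.77 (SE 0.37, adjusted p = 0.162). The CAC over AAC call was lost without either *rtf1∆* library, at -2.02 (adjusted p = 0.285) and -1.68 (adjusted p = 0.343) by limma.

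The genotypes also differed in the balance between the amino acids. Reads on isoleucine tRNAs were 1.53 and 1.51 times those on valine tRNAs in wild type, 2.47 and 2.32 times in *rtf1∆*, and 0.601 and 0.473 times in *paf1∆*. Isoleucine thus outnumbered valine in the 4 libraries of wild type and *rtf1∆* and was outnumbered in *paf1∆*, with no overlap between any genotypes. This ratio was computed after the levels had been seen and was not tested. In wild type it was nearly the same in both libraries even though tRNA-Val(AAC) and tRNA-Val(UAC) differed in opposite directions between them.

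The division of reads between near-identical copies also set the *paf1∆* libraries apart, a description made after the counts had been seen and not tested between genotypes. The second tRNA-Val(AAC) sequence took 49.6% (95% Wilson interval 48.7 to 50.4%) and 50.1% (49.2 to 51.0%) of the pair's reads in wild type, and 51.8% (50.5 to 53.2%) and 50.01% (48.4 to 51.7%) in *rtf1∆*. In 3 of these 4 libraries the division differed from equal by less than the sampling noise (adjusted p of the exact binomial test, over 12 divisions, from 0.475 to 1), and in *rtf1∆* replicate 1 the adjusted p was 0.0180. The test takes each read as independent, which amplified reads are not, and most fragments fit both copies. Its p-values therefore do not measure the levels of the copies. With 13 genes for one sequence and 1 for the other, an equal division does not follow the gene numbers, and the separate levels of the copies are uncertain in these libraries. In *paf1∆* the second sequence took 23.95% (23.8 to 24.1%) and 7.47% (7.33 to 7.62%), that is, the first had 3.18 and 12.4 times its reads.

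For tRNA-Ile(UAU) the second sequence took 50.04% (95% Wilson interval 48.9 to 51.2%) and 51.1% (50.4 to 51.9%) in wild type and 51.3 and 50.7% in *rtf1∆*. In *paf1∆* it took 54.6% (54.1 to 55.1%) and 54.9% (54.3 to 55.4%), close to each other and above the other 4 libraries. The division of this pair thus shifted little, and toward the second copy, where that of tRNA-Val(AAC) shifted far and toward the first.

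The A74G difference is at the last base of the 74-nt gene, the length of the reference used for wild type and *rtf1∆*. Only lengths of the references are given, and where the 3 further bases in *paf1∆* lie is not known. The window counts here assume that they follow the last base. Of the possible 19-nt windows, 1 of 56 then covers the differing base in the shorter reference and 4 of 59 in the longer. For 35-nt windows the numbers are 1 of 40 and 4 of 43. For tRNA-Ile(UAU) the differing base has 14 bases after it in the 73-nt gene sequence without the intron. There 27.3% of 19-nt windows cover it, and 31.0% with the 3 further bases counted at its end. These windows include those across the splice junction, which have no unbroken match in the references, so the share among windows that match is not given. Whether the division in *paf1∆* comes from the deletion or from the longer reference cannot be told apart. Every value of a single tRNA-Val(AAC) or tRNA-Ile(UAU) copy in *paf1∆* carries this limit. The anticodon sums do not depend on the division.

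**Figure D4:**
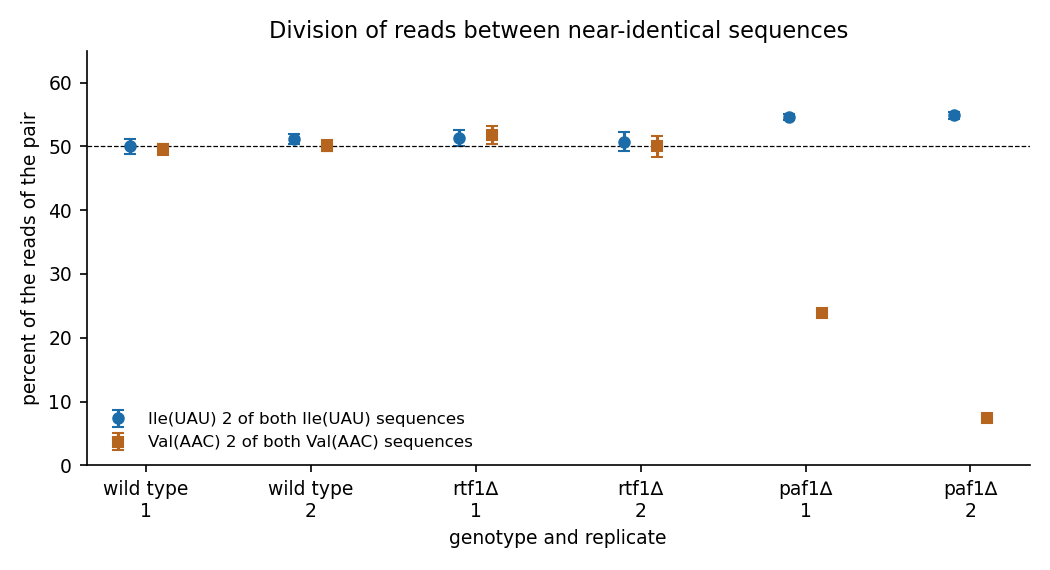
Percent of the reads of each near-identical pair on its second sequence, with 95% Wilson intervals, in the 6 libraries; the dashed line marks an equal division. Both pairs lie at 49.6 to 51.8% in wild type and *rtf1∆*, and the tRNA-Val(AAC) pair drops to 23.95 and 7.47% in *paf1∆*.

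The types were also compared by their pattern over the 6 libraries. Likeness was measured as the root mean square difference of log2 CPM, each type centred on its own mean. tRNA-Ile(AAU) and tRNA-Ile(UAU) differed by 0.37, the least of the pairs among the isoleucine and valine types, and tRNA-Ile(AAU) and tRNA-Val(AAC) by 1.37, the most. tRNA-Ile(UAU) differed from tRNA-Val(CAC) by 0.42 and from tRNA-Val(UAC) by 0.52, less than any pair of valine types, at 0.65 to 0.95. The median difference from the types of other amino acids was 0.67 to 1.11. The nearest of the other types was tRNA-Cys(GCA) for tRNA-Ile(AAU), at 0.18, tRNA-Gln(UUG) for tRNA-Ile(UAU), at 0.20, and tRNA-Leu(GAG) for tRNA-Val(AAC), at 0.14. tRNA-Thr(AGU) was nearest to both tRNA-Val(CAC), at 0.36, and tRNA-Val(UAC), at 0.41. These are descriptions over 6 points that share their libraries and scale.

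The other tRNAs with an A-starting anticodon, of alanine, arginine, proline, serine and threonine, gave 7 sequences of 5 anticodons. In *paf1∆* against wild type 5 of them were higher and 2 lower, with a median of 0.21, where tRNA-Ile(AAU) had -1.93. By edgeR 3 passed the test as higher and 0 as lower, beside 18.6% of all 70 sequences. Those called were both tRNA-Ser(AGA) sequences, at 3.25 and 3.93, which share their anticodon, and 1 tRNA-Arg(ACG) sequence at 1.54 (adjusted p = 0.0498 by edgeR). Serine tRNAs with other anticodons were also higher, at 2.595 to 5.27. In *paf1∆* against *rtf1∆* 2 passed as higher, again the tRNA-Ser(AGA) sequences, and 1 as lower, beside 25.7%. In *rtf1∆* against wild type their median was 0.18, and 0 passed while 2 had an unadjusted p under 0.05 by edgeR. The 9 sequences for leucine, the third branched-chain amino acid, were all higher in *paf1∆* than in wild type, with a median of 0.12, but 0 passed the test and 0 had an unadjusted p under 0.05 by edgeR. They hold only 4 anticodons, with near-identical copies among them, and are not separate observations. In *rtf1∆* 8 of the 9 were higher and 1 lower, with a median of 0.52, and 0 passed while 4 had an unadjusted p under 0.05 by edgeR. The 28 sequences, of 10 anticodons, whose anticodon has an intron in every gene, as tRNA-Ile(UAU) has, were divided into 13 higher and 15 lower in *paf1∆*, with 1 passing in each direction, the lower one being the first tRNA-Ile(UAU) sequence.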

How the data were processed

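Adapter clipping, quality trimming and alignment to a file of unique yeast tRNA sequences were done by the authors on Galaxy. They deposited the IdxStats output of each library, with a raw, unnormalized count for every tRNA sequence and the number of reads aligned to none. Per the labels' processing notes, Bowtie and SAMtools were used. Versions, and the placing of reads that fit several sequences, are not given in the sources used here. Samples were grouped by the genotype in their labels, and replicate numbers were taken from the titles. The *rtf1∆* numbers of the titles are the reverse of those in the table names, and the titles were followed.

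The 4 libraries of a comparison were fitted together over all 70 sequences, and over 43 anticodon sums, with edgeR 4.0.16 in R 4.3.3 (TMM normalization, quasi-likelihood test, two-sided, Benjamini-Hochberg over all features, threshold 0.05, at least 10 counts in 2 libraries, which removed nothing). The 21 log2 ratios of minor to major anticodons, with a pseudocount of 0.5, were tested with limma 3.58.1. Levels in CPM are on the scale of all 6 libraries, and fold changes are from the 4 of a comparison. Shares have 95% Wilson intervals. Genes, introns and sequences came from the RefSeq R64 genome, where 273 of 275 nuclear tRNA genes were given an anticodon from their structure. Every isoleucine and valine sequence is named, with the nearest types by likeness. The members and gene lists were chosen with earlier results of these data known. Alternatives were other scalings, DESeq2 1.42.0, limma-voom, other filters and pseudocounts, a fit of all 6 libraries, the replicate block and each library left out.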

Additional observations from a re-analysis of the deposited data

How the results depend on the processing

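Of 287 values of single sequences, 175 of anticodon sums and 72 of ratios under an alternative, 226, 148 and 61 kept their direction and their side of the threshold, and 8, 7 and 2 reversed. The causes were not tested. In *rtf1∆* against wild type, 4 sequences passed, 2 by DESeq2, 1 with total counts, and 0 with upper quartile scaling, limma-voom, at least 500 counts in every library, or all 6 libraries in one fit. Of the anticodon sums 0 passed, 1 with DESeq size factors, 2 with upper quartile scaling, 4 with total counts and 2 by DESeq2. In *paf1∆* against wild type, 13 sequences passed, 21 with upper quartile scaling and 28 by DESeq2. Of the sums 7 passed, 4 with upper quartile scaling and by limma-voom, 12 with total counts, 17 by DESeq2 and 15 with all 6 libraries. Of the ratios 3 passed, and of the shares of minor anticodons 5 by edgeR with the amino acid sum as offset. In *paf1∆* against *rtf1∆*, 18 sequences passed, 29 with DESeq size factors and with upper quartile scaling, and 35 by DESeq2. The edgeR offset fit follows the share of an anticodon in valine reads and is no second estimate of the ratio. In *rtf1∆* against wild type it gave -0.052 for the share of UAC, where UAC over AAC was at 0.17. In *paf1∆* against *rtf1∆* it gave -1.04 (adjusted p = 0.0843 by edgeR) for the share of CAC and -0.62 for that of UAC. There the ratios to AAC were at -1.85 and -1.45. In the latter comparison tRNA-Val(UAC) was at -0.22 with upper quartile scaling, its sum at 0.063 with that scaling and 0.091 with total counts, and the second tRNA-Val(AAC) sequence at 0.0083 with total counts.

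Leaving out each library in turn leaves 1 library in a group, which is assumed to vary like the other group. In *rtf1∆* against wild type, the count of calls then ranged from 0 to 23 for sequences, from 0 to 5 for sums and from 0 to 9 for ratios. In *paf1∆* against wild type it ranged from 0 to 17, 0 to 5 and 0 to 6, and in *paf1∆* against *rtf1∆* from 11 to 47, 0 to 28 and 0 to 16. In *rtf1∆* against wild type tRNA-Ile(AAU) ranged from -0.18 to 0.035, tRNA-Val(CAC) from -0.29 to 0.13, its sum from -0.34 to 0.16, CAC over AAC from 0.53 to 1.13 and UAC over AAC from -0.97 to 1.32. In *paf1∆* against wild type the tRNA-Val(AAC) sum ranged from -0.12 to 1.10, the tRNA-Val(CAC) sum from -0.88 to -0.20, the tRNA-Val(UAC) sum from -1.44 to -0.17 and CAC over AAC from -1.33 to -0.72. In *paf1∆* against *rtf1∆* the second tRNA-Val(AAC) sequence ranged from -1.22 to 0.32, tRNA-Val(UAC) from -0.41 to 0.45, its sum from -0.52 to 0.30, UAU over AAU from 0.54 to 1.01, CAC over AAC from -2.02 to -1.68 and UAC over AAC from -1.82 to -1.08.

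The genotypes share replicate numbers, but nothing says that a number marks a shared culture or day, and deviations from the group means in same-numbered libraries correlated with r = 0.10, 0.25 and 0.01 in *paf1∆* and *rtf1∆* against wild type and *paf1∆* against *rtf1∆* (-0.25 and -0.01 with the *rtf1∆* numbers exchanged). With the replicate block, 20 sequences and 0 sums passed in *paf1∆* against wild type, 0 sequences in *rtf1∆* against wild type under either numbering, and 0 ratios in *paf1∆* against *rtf1∆*, where CAC over AAC stayed at -1.85 (adjusted p = 0.120 by limma). With the numbers exchanged 0 sequences passed in *paf1∆* against *rtf1∆*.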
